A study of Mus musculus with 12 samples.

Results

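The lungs of mice given the tobacco carcinogen NNK alone were compared with the lungs of mice given phosphate-buffered saline (PBS), using 3 NNK arrays and 3 PBS arrays chosen by their sample titles from a series of 12 arrays. The mice were FVB/NJ females, 7 weeks old at the start, a strain written FVB/N in the protocol. NNK was injected into the peritoneum at 3 mg per mouse during the first 4 weeks, on a schedule that one label calls biweekly and another semi-weekly. The PBS mice received saline each week for 16 weeks, and the labels name no vehicle for NNK. Lungs were taken 1 week after the last treatment, so the labels leave the age of the NNK mice at death unclear. The other groups were 3 mice given lipopolysaccharide (LPS, bacterial endotoxin) into the nose at 5 ug each week for 16 weeks, and 3 given both agents. No group carries a transgene, and whole lung was used, so fewer cells of a type and less RNA per cell cannot be told apart.

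NNK is a nicotine-derived nitrosamine that forms DNA adducts after activation by cytochrome P450 enzymes of the airway and alveolar epithelium. Carbonyl reductases turn it into the alcohol NNAL, which is cleared as a glucuronide or activated in its turn. Methylated bases left in DNA are a known source of mutations in mouse lung adenomas, and NNK also binds nicotinic and beta-adrenergic receptors.

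Each value below is a level on the log2 scale, the scanner's processed signal minus the 75th percentile of its array, so that a difference of 1 is a 2-fold change. Probes were read as well above background at 62.7 to 67.5% of spots on the NNK arrays and at 70.2 to 73.1% on the PBS arrays. The 75th percentile of signal was 268 to 411 on the NNK arrays and 699 to 984 on the PBS arrays, while the added spike-in controls were brighter on the NNK arrays (median log2 signal 10.51 to 11.36 against 9.05 to 10.09). Over all items tested, the NNK arrays correlated with each other at 0.981 to 0.990, and with the PBS arrays at 0.914 to 0.933. PBS arrays always held the first position on a slide, and NNK and LPS arrays the second. Position and treatment thus cannot be told apart in the comparisons of NNK or LPS with PBS. Slide 5 held PBS 3 with NNK 2, and no other slide held both groups. LPS arrays were on slides 2 to 4 and NNK arrays on slides 5 to 7, so slide and treatment cannot be told apart between NNK and LPS. PBS 2 was scanned on a different day from the other 11 arrays. The lung markers were high on all 6 PBS and NNK arrays: surfactant protein C (Sftpc) lay between 8.41 and 10.58 and secretoglobin Scgb1a1 between 7.68 and 7.97.

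PBS 1 and PBS 2 went against their label of female. The Y-linked gene Eif2s3y stood at 1.37 and 1.51 on these arrays, and at -7.54 on PBS 3 and -7.37 to -6.79 on the NNK arrays, where it was not above background. The X-inactivation transcript Xist was not above background on PBS 1 and PBS 2, and stood at -1.69 on PBS 3. Results are therefore also given against PBS 3 alone, a single array whose spread is taken from the other groups.

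Of 21855 items tested, 11264 differed between NNK and PBS at an adjusted p under 0.05, which is 51.5%. There were 6081 items higher in NNK (27.8%) and 5183 lower (23.7%), and 67.6% of items had every NNK array on one side of every PBS array. Among the 13648 genes with a symbol, 33.1% were higher and 17.7% lower, with a median change of 0.26. The counts of each gene list below are to be read beside these shares. Against PBS 3 alone 4299 items were called, 2764 higher and 1535 lower, and 6643 were called with the slide as a fixed effect. The split moved with the background and scaling: 54.0% of calls were higher here, 65.4% after centring each array on its median, 82.3% after normexp background correction 70.4% with no filter on dim probes and 64.3% against PBS 3 alone, but 49.8% under quantile normalization and 47.3% under cyclic loess, where more items were lower than higher. Median centring, normexp and no filter moved the median change of all items from 0.04 to 0.24, 0.55 and 0.50.

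The 12 genes with the largest rise joined secreted defence proteins, epidermal proteins and neural genes. Dmbt1, a secreted scavenger-receptor protein of mucosal surfaces, stood at -5.53, -6.53 and -4.39 on the PBS arrays and at 1.38, 0.92 and -0.17 on the NNK arrays. Its rise was 6.20 ± 1.02 (SE, adjusted p = 0.00052), with no overlap. Lactoferrin (Ltf) rose from -0.09, -0.43 and 3.04 to 6.27, 5.61 and 4.39. PBS 3 was the highest of its group for both, and against PBS 3 alone Ltf no longer passed (2.39, adjusted p = 0.16) while Dmbt1 did (5.10, adjusted p = 0.034). Cd177, a neutrophil surface protein, rose by 4.40 ± 0.57 (adjusted p = 0.00017).

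Neuropeptide Y (Npy) was not above background on any PBS array and was measured on all 3 NNK arrays, at -1.77, -2.13 and -0.03. It was at least 27.3-fold higher in NNK (adjusted p = 5.1e-05), counting a dim array at the lowest signal it could measure. Syt10, a synaptotagmin, rose from -0.41, -1.45 and -1.71 to 3.72, 3.72 and 3.82, the tightest NNK values among these genes. Cdk5r2, an activator of the kinase Cdk5, rose by 4.96 ± 0.92 (adjusted p = 0.00099) although PBS 3, at -4.12, lay far below PBS 1 and PBS 2 at 0.34 and -0.14. Cdhr1, a photoreceptor cadherin, rose by 5.26 ± 1.01, and by 2.09 with an adjusted p of 0.071 against PBS 3 alone.

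An epidermal and a squamous gene appeared from below background. Serpinb5 (maspin, a serpin of squamous epithelium) stood at -4.59, -3.08 and -2.06 on the NNK arrays and was at least 7.16-fold higher than in PBS (adjusted p = 0.00015). Spink5, an epidermal protease inhibitor, was at least 5.54-fold higher (adjusted p = 4.3e-06). Both also rose against PBS 3 alone, which reuses arrays that chose them.

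Dlk1, an imprinted gene of fetal tissue related to the Notch ligands, had the largest mean change, 7.55 ± 1.89 (adjusted p = 0.0054). That mean rested on 2 mice: NNK 3 and NNK 5 stood at 4.42 and 5.52, and NNK 2 at -4.81, close to the PBS arrays at -6.06, -5.75 and -5.71. The call was lost against PBS 3 alone (adjusted p = 0.086).

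The 12 genes with the largest fall were of mixed function. Arl6ip5, a membrane protein of the endoplasmic reticulum, fell from 4.26, 4.16 and 3.97 to 0.28, 0.40 and 0.56, a change of -3.72 ± 0.23 (adjusted p = 4.3e-06). Xdh, the xanthine dehydrogenase of purine breakdown, went from 1.95, 2.68 and 2.53 to -1.01, -1.01 and -1.42. Dermatopontin (Dpt), a matrix protein, fell by 3.30. The genes were chosen as called and without overlap between the groups, so their separation is not a further result. Against PBS 3 alone, which reuses arrays that chose them, Arl6ip5 changed by -3.56, Xdh by -3.68 and Dpt by -3.42.

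Sin3b, a corepressor scaffold, was above background on the 3 PBS arrays and on no NNK array, and was at least 8.02-fold lower in NNK. Kif12, a kinesin, was at least 9.73-fold lower, the endothelial lipase Lipg at least 4.25-fold and the mitochondrial carrier Ucp3 at least 2.65-fold, though Lipg and Ucp3 turned positive under normexp. Under that setting Sin3b changed by -0.01 and Kif12 by -0.20, and both lost their calls. Tatdn2, Creb3l3, Eml6 and Syt6 fell by between 3.14 and 3.89, and Creb3l3, Eml6 and Syt6 lost their calls under normexp. Between NNK and LPS the adjusted p of the 12 genes ran from 0.15 to 0.95, which does not show that the groups were alike, and for Sin3b, Kif12, Lipg and Ucp3 both groups were below background, so that no difference can be read.

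**Figure D1:**
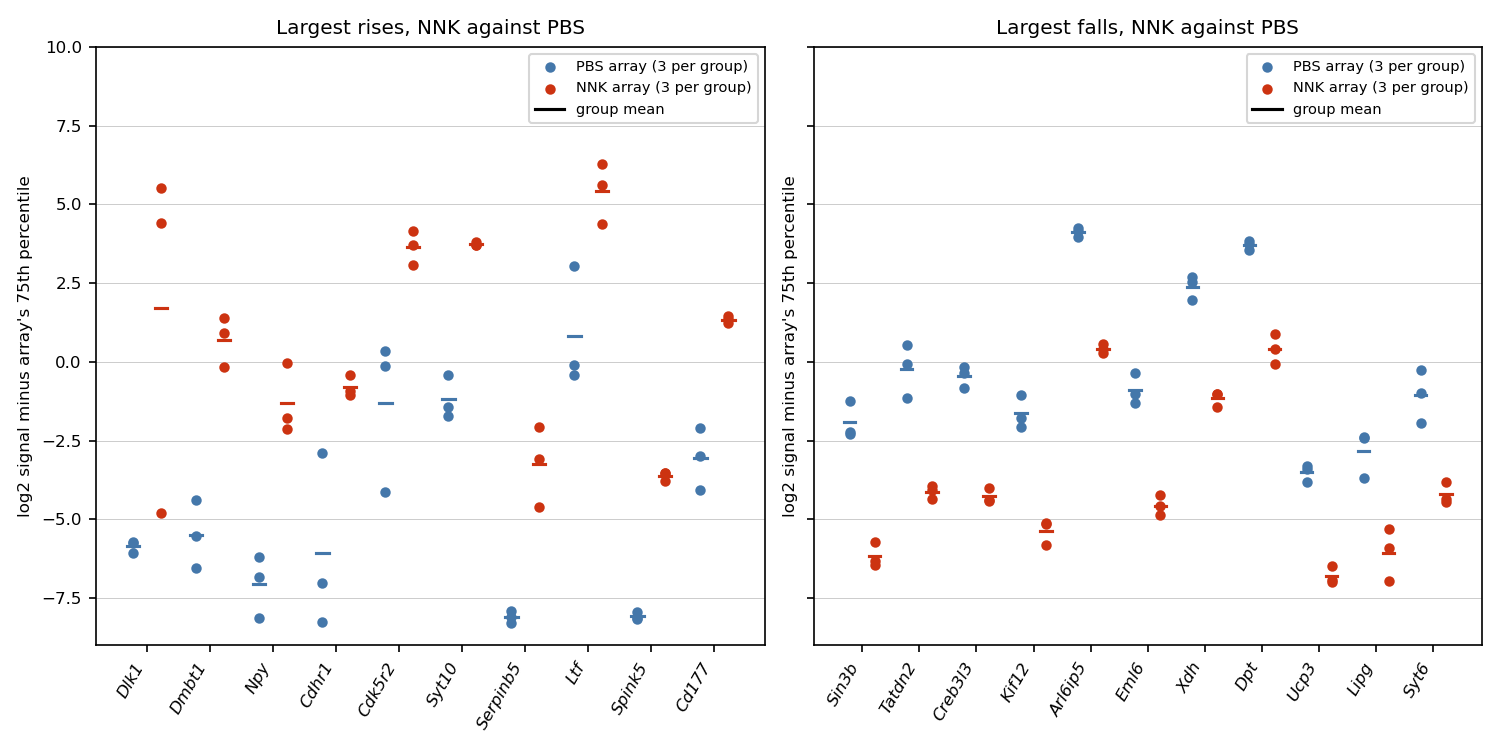
Levels of 10 of the 12 genes with the largest rise (left) and 11 of the 12 with the largest fall (right) in NNK against PBS, as log2 signal minus the array's 75th percentile. Each point is 1 array, 3 per group, and the short line is the group mean; the groups do not overlap for any of these genes, which is how they were chosen, and NNK 2 lies apart from the other NNK arrays for Dlk1.

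Among P450 genes and their reductases, 5 of the 19 tested rose and 3 fell (26.3 and 15.8%, beside 33.1 and 17.7% of all named genes). Por, the reductase that feeds electrons to P450 enzymes, rose from 5.34, 5.18 and 5.20 to 6.95, 6.93 and 6.89 (1.68 ± 0.27, adjusted p = 0.00045). Cyp2s1 rose by 1.78, Cyp2b19 by 1.08, Cyp2u1 by 0.96 and Cyp1b1 by 0.83. Cyp2j6 changed by -1.28 and the electron carrier Cyb5a by -0.74, and Cyp2c55, above background on no NNK array, was at least 1.15-fold lower. Of these 8, Por and Cyp2b19 remained called against PBS 3 alone. Cyp2a5, which activates NNK in mouse lung, stood at 3.04, 3.68 and 4.89 in PBS and 4.29, 3.80 and 3.83 in NNK, a change of 0.10 ± 0.43 (adjusted p = 0.85). Cyp2f2, the club cell P450, changed by 0.65 ± 0.28 (adjusted p = 0.067). The median change of the list was 0.53, and it turned to -0.25 under cyclic loess and -0.06 under quantile normalization.

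Enzymes of carbonyl reduction and conjugation were mostly lower, 13 of 23 tested (56.5%, beside 17.7% of all named genes), and 3 were higher. The shift was not particular to NNK: the list's median was -0.82 in LPS against PBS, and no member was called between NNK and LPS. Akr1c14, an aldo-keto reductase that acts on hydroxysteroids, fell from 1.52, 2.29 and 1.30 to -1.23, -0.43 and -0.37 (-2.38 ± 0.36, adjusted p = 0.00033). The flavin monooxygenase Fmo2 fell by 1.58, and the aldehyde dehydrogenases Aldh1a7 and Aldh1a1 by 1.11 and 0.71. Ephx1, the microsomal epoxide hydrolase, rose by 1.40 and Fmo5 by 0.75. Cbr2, the abundant carbonyl reductase of lung, rose by 1.19 at levels near 9.6, but was lower by 0.34 under quantile normalization and by 0.42 under cyclic loess. The median of the list was -0.81, and lay between -0.88 and -0.42 under 4 other scalings. Against PBS 3 alone 3 members were lower and 1 higher, with a median of -0.68.

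Nrf2 and glutathione genes were split by family, with 16 of 40 higher and 5 lower (40 and 12.5%, beside 33.1 and 17.7% of all named genes). Their median of 0.60 was -0.04 under cyclic loess. The 5 that fell were Nqo1, the quinone reductase, and the alpha-class glutathione transferases Gsta1, Gsta2, Gsta3 and Gsta4. Gsta2 fell by 2.66 ± 0.46 (adjusted p = 0.00068), Gsta1 by 1.91 and Gsta3 by 1.78. These transferases are close relatives in sequence, so probes may share signal. Among those that rose were Pgd of the pentose phosphate pathway (1.37), glutathione peroxidase Gpx1 (1.34) and ferritin light chain Ftl1 (1.34), and the Gpx1 and Ftl1 calls were lost under quantile normalization, cyclic loess and normexp.

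Of 33 p53 targets tested, 11 rose and 9 fell (33.3 and 27.3%, beside 33.1 and 17.7% of all named genes). The median was 0.29, beside 0.26 for all named genes, and was -0.01 under cyclic loess and normexp. The share of rises was thus that of all named genes, and the genes named here are all rises. Phlda3, an Akt inhibitor induced by p53, rose from 3.96, 3.48 and 3.99 to 5.93, 5.67 and 5.96 (2.04 ± 0.27, adjusted p = 0.0002). Sestrin 2 (Sesn2) rose by 1.96, Zmat3 by 1.79, Trp53 itself by 1.63 and the relative Trp73 by 1.37. The cell-cycle inhibitor Cdkn1a stood at 0.41, -0.34 and 0.73 in PBS and 1.85, 1.44 and 1.74 in NNK, a rise of 1.41 ± 0.32 (adjusted p = 0.0031) that fell to 0.95 (adjusted p = 0.13) against PBS 3 alone. No NNK array of Cdkn1a reached down to a PBS array, and 67.6% of all items likewise had no overlap between the groups.

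DNA repair genes included more falls than rises, 15 against 9 of 51 tested, with a median of -0.52. That is 29.4% lower and 17.6% higher, beside 17.7 and 33.1% of all named genes. Ercc4 and Ercc1, the partners of the nuclease of nucleotide excision repair, rose by 1.58 and 1.26. Polymerase beta (Polb) of base excision repair fell by 1.33 ± 0.25 (adjusted p = 0.0011). Polh, a translesion polymerase, was not above background on any NNK array. The list's median was 0.17 under normexp, which shifted all items by 0.55, and with PBS 3 alone 6 members were higher and 2 lower. No probe carries the name of Mgmt, the methyltransferase that repairs methylated guanine.

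Of the 13 nicotinic subunit genes on the array, 11 were too dim to be tested, Chrna10 rose by 1.10 and Chrnb1 changed by 0.31 (adjusted p = 0.34). Of the nicotinic and adrenergic list, which also holds regulators of these receptors, 11 of the 16 tested rose and the other 5 did not pass. Its median change of 1.23 stayed between 1.05 and 1.43 under 4 other scalings. In LPS against PBS the list's median was 0.68. Adra2c, an alpha-adrenergic receptor, stood at -6.89, -6.49 and -5.84 in PBS, where 1 array was above background, and at -3.98, -4.28 and -4.34 in NNK (2.21 ± 0.27, adjusted p = 0.00014). In LPS it was not above background, and NNK was at least 1.11-fold higher (adjusted p = 0.0003). Adra2a rose by 2.77, Adra1d by 1.48, the receptor kinase Grk2 by 1.35 and Ly6h, a toxin-like modulator of nicotinic receptors, by 1.41. The beta receptor Adrb1 changed by 0.73 ± 0.49 (adjusted p = 0.23). Chrna7, the alpha-7 nicotinic receptor, was above background with 1 of its 2 probes on 1 of 12 arrays, PBS 1, and was not tested. Of the 16 genes, 3 were called against PBS 3 alone.

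Output genes of RAS and MAPK signalling rose, 15 of 28 tested, and 1 fell. Egr1, an immediate early transcription factor, stood at 1.21, 1.54 and 1.28 in PBS, 3.59, 3.98 and 4.19 in NNK and 0.70, 1.86 and 1.44 in LPS. The rise was 2.58 ± 0.34 against PBS (adjusted p = 0.00019) and 2.58 ± 0.34 against LPS (adjusted p = 0.00077), without overlap in either. The receptor Erbb2 rose by 1.44, Phlda1 by 1.69 and Hras by 1.27. Nras changed by -0.89 (adjusted p = 0.0081) and was the 1 that fell. The list's median was 0.93, between 0.48 and 1.14 under 4 other scalings, and 8 members rose against PBS 3 alone.

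Against LPS, 4 members of that list were higher in NNK. Besides Egr1 they were the feedback inhibitor Spry4, Fos and the EGF-family ligand Areg. Spry4 stood at -2.32, -1.64 and -0.45 in NNK, at -2.52, -2.70 and -3.73 in PBS and at -5.11, -4.82 and -3.67 in LPS, where 1 array was above background. Its difference from LPS of 3.06 ± 0.48 (adjusted p = 0.0021) thus rests in part on LPS signals below background. Areg differed from LPS by 2.25 (adjusted p = 0.011) and did not pass against PBS (adjusted p = 0.085). Spry4 and Areg had NNK 2 as the lowest and NNK 5 as the highest NNK array.

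Immediate early genes, transcribed within minutes of a stimulus or of tissue handling, rose in 13 of 23 cases, and the other 10 did not pass. Jund rose by 2.42 ± 0.31 (adjusted p = 0.00018), Klf2 by 1.89, Zfp36 by 1.40 and Ier2 by 1.39. Fos rose by 1.10 against PBS and by 1.64 against LPS, and Ccn1 by 0.96 and 1.38. Dusp1, a MAPK phosphatase, was higher than in LPS by 1.76 (adjusted p = 0.031) and changed by 0.72 against PBS (adjusted p = 0.18). The part of tissue handling was not tested, and against PBS 3 alone 4 members rose.

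Lung tumour genes rose in 13 of 30 cases and fell in 2, with a median of 0.70. The list's median in LPS against PBS was 0.81, so the shift was not particular to NNK. Claudin 2 (Cldn2), a tight junction protein, stood at -6.13, -5.99 and -4.92 in PBS and -3.58, -1.19 and -0.89 in NNK (3.80 ± 0.62, adjusted p = 0.00049), and was also higher than in LPS by 2.24 (adjusted p = 0.048). The NNK arrays of Cldn2 spread widely, with NNK 2 the lowest. Clusterin (Clu) rose by 1.77, the keratin Krt19 by 1.38, the aspartic protease Napsa by 1.39 and the kinase Stk11 by 1.19. E-cadherin (Cdh1) rose by 0.91 against PBS and 0.92 against LPS. Hmga2, a chromatin protein of fetal lung and tumours, changed by -1.55 and the galectin Lgals4 by -1.13, where Hmga2 was above background on 2 NNK arrays and on no LPS array.

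Of 38 proliferation genes 5 were higher and 6 lower (13.2 and 15.8%, below the 33.1 and 17.7% of all named genes). Their median of -0.15 was 0.05 under median centring and 0.54 under normexp. Without PBS 1 the counts were 10 higher and 1 lower, under normexp 7 and 1, and against PBS 3 alone 6 and 1. Cdc20, the mitotic activator, rose by 1.63, Foxm1 by 1.57, Ube2c by 1.22, Plk1 by 1.19 and Mcm2 by 1.04. Pcna, the replication clamp, fell from 3.91, 3.37 and 3.41 to 2.62, 2.54 and 2.69, a change of -0.95 ± 0.27 (adjusted p = 0.011) that was lost against PBS 3 alone. Nusap1 fell by 1.54.

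**Figure D2:**
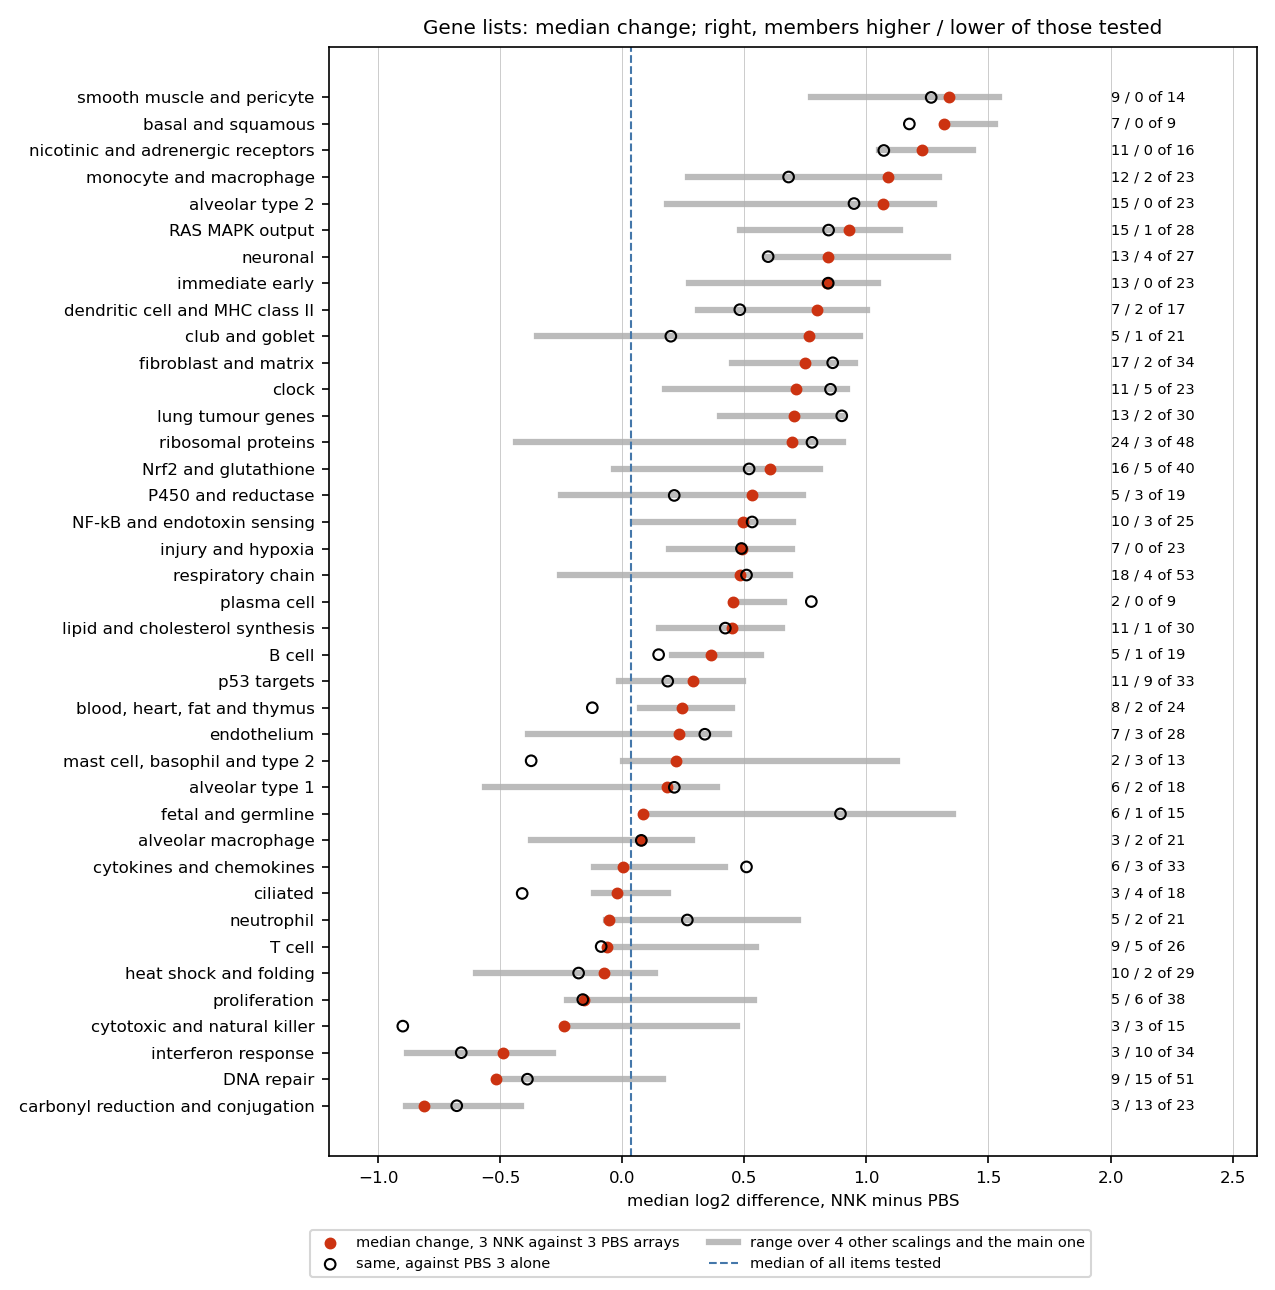
Median log2 change, NNK minus PBS, of each gene list with 5 or more genes tested. Filled points use all 3 PBS arrays and open points PBS 3 alone. Grey bars span the medians under quantile, cyclic loess, median and normexp settings together with the reported one. The dashed line is the median of all items under the reported setting (0.04), and the counts at right give members higher and lower of those tested. Many lists stay above 0 in all of these, among them the receptor, RAS and MAPK, lung tumour, squamous, matrix and smooth muscle lists. The carbonyl reduction and interferon lists stay below 0. Normexp moved the median of all items to 0.55. Relative to that median the matrix list stood at -0.11 and the lung tumour list at 0.11 under normexp, while the squamous list stood at 0.88.

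Alveolar type 2 markers rose in 15 of 23 cases, and the other 8 did not pass. Fatty acid synthase (Fasn) stood at 5.94, 5.82 and 6.20 in PBS and 8.18, 8.52 and 8.35 in NNK (2.36 ± 0.30, adjusted p = 0.00017). The lipid transporter Abca3 rose by 1.95, surfactant protein B (Sftpb) by 1.70 and the surfactant enzyme Lpcat1 by 1.51. Under quantile normalization 8 type 2 markers rose and 4 fell, under cyclic loess 6 and 4, and under normexp 3 and 1. The list's median of 1.07 fell to 0.18 under cyclic loess and was 0.95 against PBS 3 alone. Under normexp it was 0.58, beside 0.55 for all items. Alveolar type 1 markers were mixed: Gprc5a, Scnn1a and Aqp5 rose by 1.42, 1.43 and 1.38, while Hopx and Cav2 fell by 1.45 and 1.46. The type 1 list held 6 rises and 2 falls of 18 (33.3 and 11.1%, beside 33.1 and 17.7% of all named genes). The type 1 median of 0.18 turned to -0.56 under cyclic loess, -0.44 under quantile normalization and -0.36 under normexp.

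Airway markers moved less evenly. Of 21 club and goblet genes 5 rose and 1 fell, led by the secretoglobin Scgb3a1 (2.52 ± 0.52, adjusted p = 0.0018), Ltf, Foxa3 (2.54), Krt15 (3.18) and Cbr2, with Aldh1a1 the fall, and none of them remained called against PBS 3 alone. The median of 0.77 turned to -0.35 under cyclic loess and -0.33 under quantile normalization. Scgb1a1, the defining club cell gene, changed by 0.02 ± 0.29 (adjusted p = 0.96). Ciliated genes were 3 higher (Tuba1a, Tppp3 and Tekt4) and 4 lower (Sntn, Rsph1, Tekt2 and Mlf1) of 18, of which Tuba1a and Sntn remained called against PBS 3 alone, and Rsph1 lost its call when any 1 PBS or NNK array was left out. Basal and squamous genes rose in 7 of 9 cases with a median of 1.32: Sprr1a went from -4.10, -3.55 and -4.43 to -1.09, -2.22 and -2.51, and Krt14 from -4.16, -3.90 and -4.18 to -2.38, -2.25 and -2.50. Sprr1a and Krt14 were dim on all 6 arrays, without overlap between groups, and they were the 2 of the 7 rises that remained called against PBS 3 alone.

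Smooth muscle and pericyte genes were higher in 9 of 14 cases, among them Lmod1 (2.05 ± 0.24, adjusted p = 0.00013), desmin (Des, 1.95) and the pericyte proteoglycan Cspg4, which rose from 0.34, 0.39 and 0.35 to 2.67, 2.26 and 2.36. The list's median was 1.34, and 0.77 to 1.55 under 4 other scalings. Fibroblast and matrix genes, with a median of 0.75 and of 0.86 against PBS 3 alone, were higher in 17 of 34 cases and lower in 2. Collagen genes led these, with Col15a1 rising by 2.40 ± 0.27 (adjusted p = 9.2e-05), Col1a1 by 2.10 and Col5a1 by 1.84, beside Fbln1 (2.24) and the crosslinking enzyme Loxl1 (2.05). Periostin (Postn) changed by -1.56 and lumican (Lum) by -0.88. Endothelial genes gave 7 rises and 3 falls of 28, with a median of 0.23 that turned negative under quantile, cyclic loess and normexp settings: von Willebrand factor (Vwf) rose by 1.94, and the receptors Tek and Tie1 and the secreted Egfl7 changed by -1.49, -0.97 and -1.27. The endothelial share of rises, 25.0%, was below that of all named genes, and 1 endothelial gene was higher against PBS 3 alone. Of 24 blood, heart, fat and thymus genes 8 rose (33.3%, close to the 33.1% of all named genes) and 2 fell, with a median of 0.24. Cardiac Myh7 rose by 1.73 and the erythroid gene Alas2 by 1.49, while Pln and Cd1d1 were the falls. The list's median was -0.12 against PBS 3 alone, and the part of blood and heart tissue in the stromal values was not tested.

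Monocyte and macrophage genes were higher in 12 of 23 cases and lower in 2. Their median was 1.09, but 0.27 under cyclic loess and 0.68 against PBS 3 alone. Gpnmb, a glycoprotein of lipid-laden macrophages, stood at -1.05, -1.54 and -0.57 in PBS and 3.13, 1.72 and 3.15 in NNK (3.72 ± 0.45, adjusted p = 0.00014). Trem2 rose by 2.64, the complement gene C1qc by 1.79 and galectin 3 (Lgals3) by 1.77. Ccr2, the receptor of recruited monocytes, fell from 0.61, 0.30 and -0.12 to -1.83, -1.26 and -1.43, and was also lower than in LPS by 1.40 (adjusted p = 0.0063). Cd5l was not above background in NNK. In the direct comparison with LPS, 10 members of the list were lower in NNK and 2 higher, the elastase Mmp12 and the scavenger receptor Cd163. Cd163 was above background on no LPS array and at least 3.13-fold higher in NNK, while its change against PBS was -0.72 (adjusted p = 0.33).

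T cell genes were 9 higher and 5 lower of 26 against PBS (34.6 and 19.2%, beside 33.1 and 17.7% of all named genes), and 11 were lower than in LPS. Their median change was -0.06, and -0.09 against PBS 3 alone. Zap70 rose by 1.76, and by 1.40 against PBS 3 alone, and Trat1 was not above background on any NNK array. Genes of MHC class II and dendritic cells were 7 higher and 2 lower of 17 against PBS, 1 was higher and the other 16 did not pass against PBS 3 alone, and 11 were lower than in LPS: H2-DMa rose by 1.92 against PBS and was lower than in LPS by 1.59 (adjusted p = 0.011). Of 9 plasma cell genes 2 were higher against PBS (22.2%, beside 33.1% of all named genes), the other 7 did not pass, and 5 were lower than in LPS. Derl3, a secretory gene and 1 of the 2 rises, went from -2.49, -2.51 and -2.85 to -0.66, -1.26 and -1.08. It was lower than in LPS by 3.46 (adjusted p = 1.1e-05). Neutrophil genes were 5 higher and 2 lower of 21 (23.8 and 9.52%, below the 33.1 and 17.7% of all named genes). Retnlg was up by 1.39 against PBS and by 1.64 against LPS (adjusted p = 0.0037). Alveolar macrophage genes were 3 higher (Itgax, Abcg1 and Slc39a2) and 2 lower (Krt79 and Marco) of 21, with a median of 0.08. That is 23.8% called, beside 51.5% of all items. Marco, a scavenger receptor, changed by -2.74.

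Interferon-response genes ran against the direction of most lists, with 10 of 34 lower, 3 higher and a median of -0.49 that stayed between -0.88 and -0.28 under 4 other scalings. Against PBS 3 alone 7 were lower and the other 27 did not pass, with a median of -0.66. Iigp1, an interferon-inducible GTPase that attacks the vacuoles of intracellular parasites, stood at 3.82, 2.02 and 4.15 in PBS, 2.76, 4.72 and 3.62 in LPS, and 0.75, 1.23 and 1.20 in NNK. The NNK arrays lay below every PBS and LPS array, by 2.27 ± 0.56 (adjusted p = 0.0048) and 2.64 ± 0.56 (adjusted p = 0.013) in the means. Iigp1 is among the genes chosen for being called and without overlap against both groups, so this separation is not a further result. Irgm1, a related GTPase, changed by -1.62 against PBS (adjusted p = 0.0055) and -1.69 against LPS (adjusted p = 0.025). Ifit2 and Ifit3, which bind foreign RNA, fell by 1.46 and 1.17 against PBS and did not pass against LPS. The 3 that rose were the oligoadenylate synthetase family members Oas2 (2.20), Oasl1 (1.48) and Oasl2 (1.02), none of which remained called against PBS 3 alone. Gbp2, Gbp5, Gbp6, Ifit1, Isg15 and Rsad2 completed the 10 falls, named here after their values were seen.

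The upstream sequence of 3 such GTPase genes lower in NNK than in both other groups is shown because interferon acts through short motifs near the start site. The 3 were picked by hand and each holds a match, so they do not stand for the other GTPases. Iigp1 and Gbp2b are not shown, and Iigp1 was not among the list genes with a match. Each line gives the 150 bases before the RefSeq start site (GRCm38.p6), 5′ to 3′ on the gene's strand, with motif matches in capitals. The motifs are the interferon-stimulated response element GAAANNGAAA and the gamma-activated site TTCNNNGAA, searched on both strands.
Irgm1, chr11:48871421-48871570, minus strand: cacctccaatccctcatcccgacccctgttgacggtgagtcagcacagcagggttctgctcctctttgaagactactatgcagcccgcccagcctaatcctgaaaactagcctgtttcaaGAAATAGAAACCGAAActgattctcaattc
Gbp2, chr3:142620513-142620662, plus strand: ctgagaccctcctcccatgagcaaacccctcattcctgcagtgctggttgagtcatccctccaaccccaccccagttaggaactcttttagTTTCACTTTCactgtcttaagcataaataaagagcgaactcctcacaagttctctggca
Tgtp1, chr11:48992247-48992396, minus strand: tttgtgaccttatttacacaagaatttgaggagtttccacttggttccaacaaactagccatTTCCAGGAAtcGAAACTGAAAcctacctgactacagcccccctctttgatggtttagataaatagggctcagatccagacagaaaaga
Irgm1 holds 2 overlapping response elements starting 30 and 24 bases before the start site, Gbp2 holds 1 on the other strand at 59, and Tgtp1 holds 1 at 77 beside a gamma-activated site at 88. Of the 10 interferon-list genes that fell, 8 have an entry and 6 of these hold the response element, against 6 of 20 in the rest of the list and 1.59% of all 32851 upstream windows of that length. The gamma-activated site is in 1 of the 8, in 6 of the 20 and in 4.09% of all windows. The list was made of interferon-response genes, so a share above that of all windows follows from its choice and is not a result of these data. Its split into fallen and other genes was made from these same arrays, and no test was run. A match is a stretch of letters and not a measured binding site.

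NNK and LPS arrays were compared directly to find where NNK lungs differed from those of another treated group. This difference uses no PBS array, and 1360 items were called, 6.22% of those tested: 763 higher in NNK (3.49%) and 597 lower (2.73%). No slide held arrays of both NNK and LPS, so slide and treatment cannot be told apart here. Spots well above background were 55.6 to 57.3% on the LPS arrays and 62.7 to 67.5% on the NNK arrays. Negative controls had a median signal of 3.29 to 4.83 on the LPS arrays and 2.18 to 2.53 on the NNK arrays. Between LPS and PBS 12243 items (56.0%) were called, in a comparison that shares the PBS arrays. List medians of LPS against PBS were 0.38 for Nrf2 and glutathione, 0.82 for ribosomal, 0.59 for matrix, 0.89 for alveolar type 2 and 1.10 for squamous genes. They were 0.81 for lung tumour genes and 0.68 for the nicotinic and adrenergic list. All of these had the same sign as in NNK. For RAS and MAPK and for immediate early genes they were 0.06 and 0.03. Items called in the same direction against both PBS and LPS, comparisons that share the NNK arrays, numbered 274 higher and 91 lower. By the smaller of both changes, the leading rises were Dlk1, Npy, the fibrinogen chain Fgg, Serpinb5, the sperm-tail anchoring protein Akap4 and Mmp12. Fgg stood at 0.16, 1.42 and 1.35 in NNK, -3.04, -4.15 and -1.05 in PBS and -3.79, -2.23 and -3.84 in LPS, 4.26 ± 0.94 above LPS (adjusted p = 0.016). Npy was at least 8.19-fold, Serpinb5 at least 2.14-fold and Akap4 at least 2.41-fold higher than in LPS, where none of the 3 was above background. Mmp12, which degrades elastin, exceeded PBS by 2.79 ± 0.64 (adjusted p = 0.0033) and LPS by 2.85 ± 0.64 (adjusted p = 0.018). Against PBS 3 alone Fgg and Dlk1 lost their calls.

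The 6 leading falls held 3 interferon-inducible GTPases, Iigp1, Gbp2b and Tgtp1, together with Slfn8 of the interferon-inducible Schlafen family, the metalloreductase Steap4 and the orphan receptor Gpr141. Tgtp1 stood between 0.95 and 1.35 on the 3 NNK arrays, at 2.93, 1.51 and 4.76 in PBS and 3.27, 4.70 and 2.89 in LPS, and its close copies may share signal. Gbp2b was above background on no NNK array, at least 3.31-fold lower than in PBS and at least 9.54-fold lower than in LPS. Slfn8 was at least 1.27-fold lower than in PBS and at least 1.22-fold lower than in LPS, and Gpr141 was dim in both NNK and LPS, so that its place among these 6 rests on signals below background and only its bound of 1.02-fold against PBS can be given. Steap4 changed by -2.90 ± 0.59 against PBS (adjusted p = 0.0016) and -2.53 ± 0.59 against LPS (adjusted p = 0.021). Against PBS 3 alone, which reuses arrays that chose them, all 6 changed in the same direction, Iigp1 by -3.10, Tgtp1 by -3.65 and Steap4 by -2.43. PBS 3 was the highest PBS array for Iigp1 and Tgtp1. Steap4, Gpr141, Gbp2b and Slfn8 turned positive against PBS under normexp. Tgtp1 lost its call against PBS without PBS 3, NNK 2 or NNK 5, and Gbp2b without PBS 1, PBS 3 or NNK 2.

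**Figure D3:**
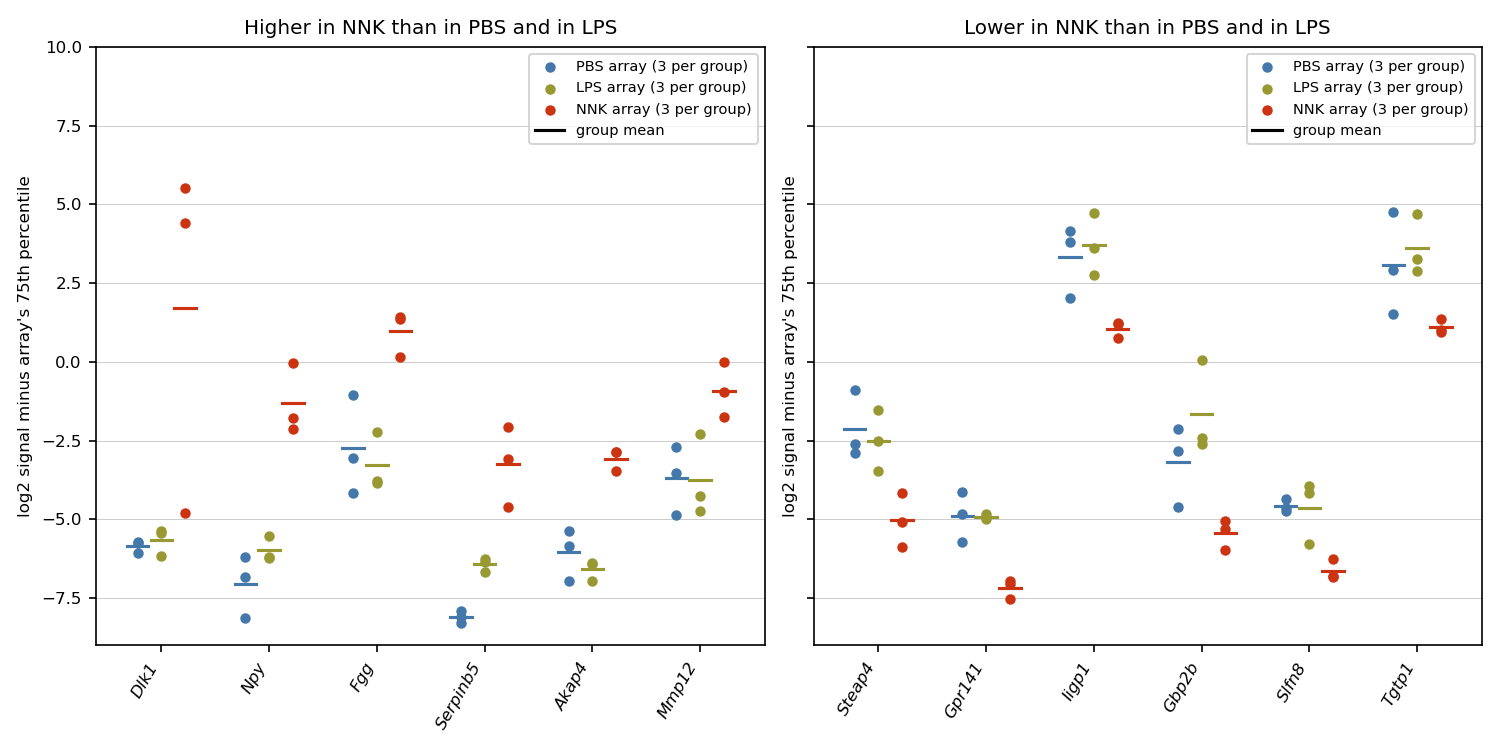
Levels of the 6 leading rises (left) and 6 leading falls (right) among genes called in the same direction against PBS and against LPS, as log2 signal minus the array's 75th percentile. Points are single arrays, 3 per group, and lines are group means; the genes were chosen for having no overlap of NNK with either group, and NNK 2 sits near the PBS and LPS arrays for Dlk1.

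Neural and neuroendocrine genes were higher in 13 of 27 cases and lower in 4. The tubulin Tubb3 rose from at most -0.44 on the PBS arrays to 2.13, 2.34 and 2.17 (3.02 ± 0.27, adjusted p = 3.7e-05). Calca, which encodes the peptide CGRP of pulmonary neuroendocrine cells and sensory nerves, stood at 1.03, 0.35 and 0.05 in NNK, above PBS by 1.97 ± 0.29 (adjusted p = 0.00029) and above LPS by 1.42 (adjusted p = 0.01). Mapt exceeded LPS by 1.91 and Scg5 by 0.98. The 4 falls were Elavl2, Map2, Stmn2 and Stx1a, genes of neuronal cell bodies and nerve endings. Against PBS 3 alone 5 members of the list rose. Other tissue genes moved as well: in the fetal and germline list, 6 of 15 rose, among them Igf2 (1.84) and the embryonic globin Hbb-y (1.77, and 2.13 against LPS).

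Circadian clock genes were called in both directions, 11 of 23 higher and 5 lower. Dbp, an output of the clock, stood at 4.06, 5.30 and 3.13 in PBS and 7.32, 6.72 and 6.79 in NNK (2.78 ± 0.49, adjusted p = 0.00078). The repressors Bhlhe41 and Bhlhe40 rose by 1.63 and 1.15. The activators Clock and Rora fell by 1.38 and 1.55, Cry1 by 1.40 and Per3 by 1.35. The labels used here give no hour of killing, the PBS arrays of Dbp spread widely, and 7 members were higher and 3 lower against PBS 3 alone.

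Sterol and lipid synthesis genes were higher in 11 of 30 cases (36.7%, close to the 33.1% of all named genes), with Elovl6 (-1.21) the 1 that fell. Dhcr7, a last enzyme of cholesterol synthesis, rose by 2.22 ± 0.29 (adjusted p = 0.00019), Mvd by 1.80 and Elovl1 by 1.74. Of 23 injury and hypoxia genes 7 rose (30.4%, also close to that share), including the metallothionein Mt1 (2.11) and the glucose transporter Slc2a1 (1.82), and the other 16 did not pass. NF-kB and endotoxin-sensing genes were 10 higher and 3 lower of 25. Their median of 0.49 was 0.04 under cyclic loess and 0.53 against PBS 3 alone. The subunits Nfkb2 and Rela rose by 1.88 and 1.63, and Nfkbiz changed by -1.63 against PBS and by -2.54 against LPS (adjusted p = 0.00046). Among cytokines 6 of 33 rose (18.2%, below the 33.1% of all named genes) and 3 fell. Tgfb1 was up by 1.94, Cx3cl1 by 1.70 and Tgfb3 by 1.60, Il18 and Ltb were at -1.25 and -1.38, and Il1a was above background on no NNK array. The cytokine counts turned with single arrays, to 10 higher and 3 lower without PBS 1, 5 and 6 without PBS 2, and 3 and 6 without PBS 3. In the heat shock list 10 of 29 rose (34.5%, beside 33.1% of all named genes) and 2 fell. Under quantile normalization 5 rose and 12 fell, under cyclic loess 5 and 11, and under normexp 2 and 4. Trib3 rose by 2.05 while the chaperones Dnaja1 and Hsp90aa1 changed by -1.43 and -0.98.

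Ribosomal protein genes were higher in 24 of 48 cases and lower in 3: Rplp2 rose by 1.87 and Rps16 by 1.67, whereas Rpl4 changed by -1.54 and Rpl5 by -0.94. The list's median was 0.70, and 0.78 against PBS 3 alone. It was -0.43 under cyclic loess, where all 19 called members were lower, and -0.13 under quantile normalization, with 4 higher and 15 lower. Normexp left 5 calls, all lower. Respiratory chain genes were higher in 18 of 53 cases (34%, close to the 33.1% of all named genes) and lower in 4, from Atp5d (2.10) to Atp5pb (-0.80). Their median of 0.48 was -0.25 under cyclic loess, -0.16 under normexp and -0.15 under quantile normalization, settings under which more members were lower than higher.

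The direction of change went with how bright and how long a gene was. Over 4 equal bins of items from dimmest to brightest, the median change went from -0.45 through -0.24 and 0.05 to 0.65, the share called higher from 16 to 46.5%, and the share called lower from 34.5 to 8.93%. Named genes in the bin with the shortest genomic span, the first of 4 (median 4.46 kb in RefSeq), had a median change of 0.66 with 44.8% higher and 8.56% lower, and those in the longest bin (median 99.5 kb) had -0.01 with 23.7% higher and 20.4% lower. Between NNK and LPS the medians over the same span bins ran from 0.03 to 0.19. Brightness and span thus moved with the treatment groups, as did the array signal given above, and their part in the gene results was not tested.

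**Figure D4:**
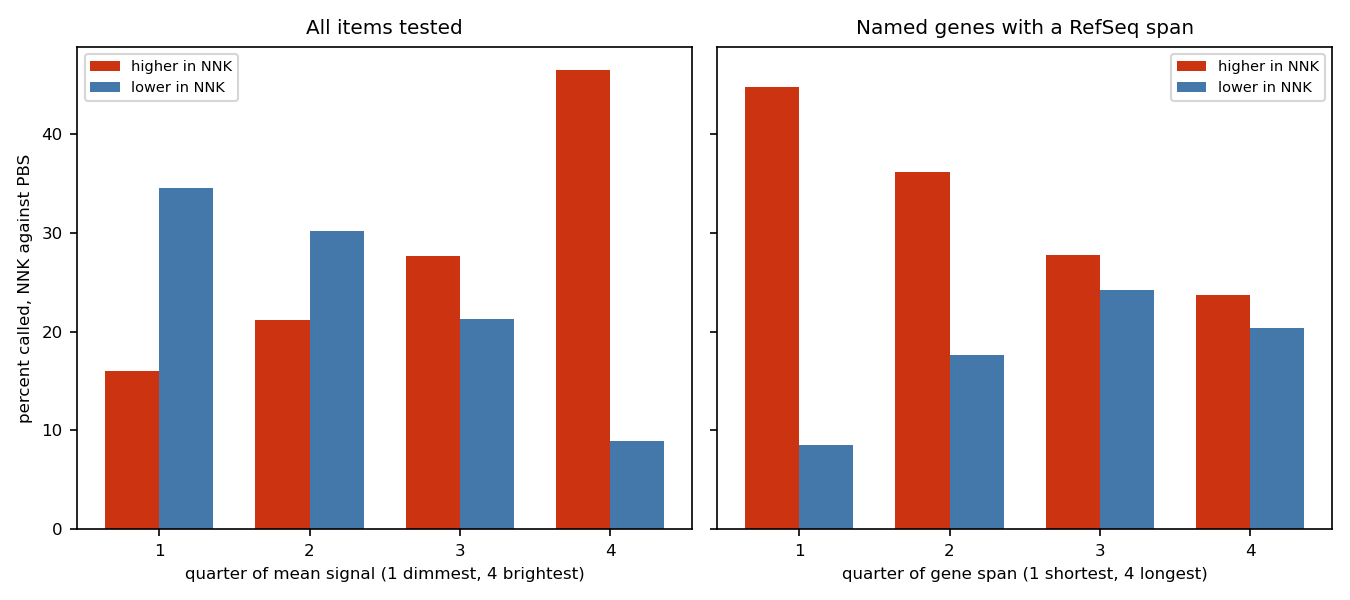
Percent of items called higher (red) and lower (blue) in NNK against PBS in 4 bins of mean signal (left, all items) and 4 bins of genomic span (right, named genes). The share called higher climbs with brightness from 16 to 46.5% and drops with span from 44.8 to 23.7%.

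**Figure D5:**
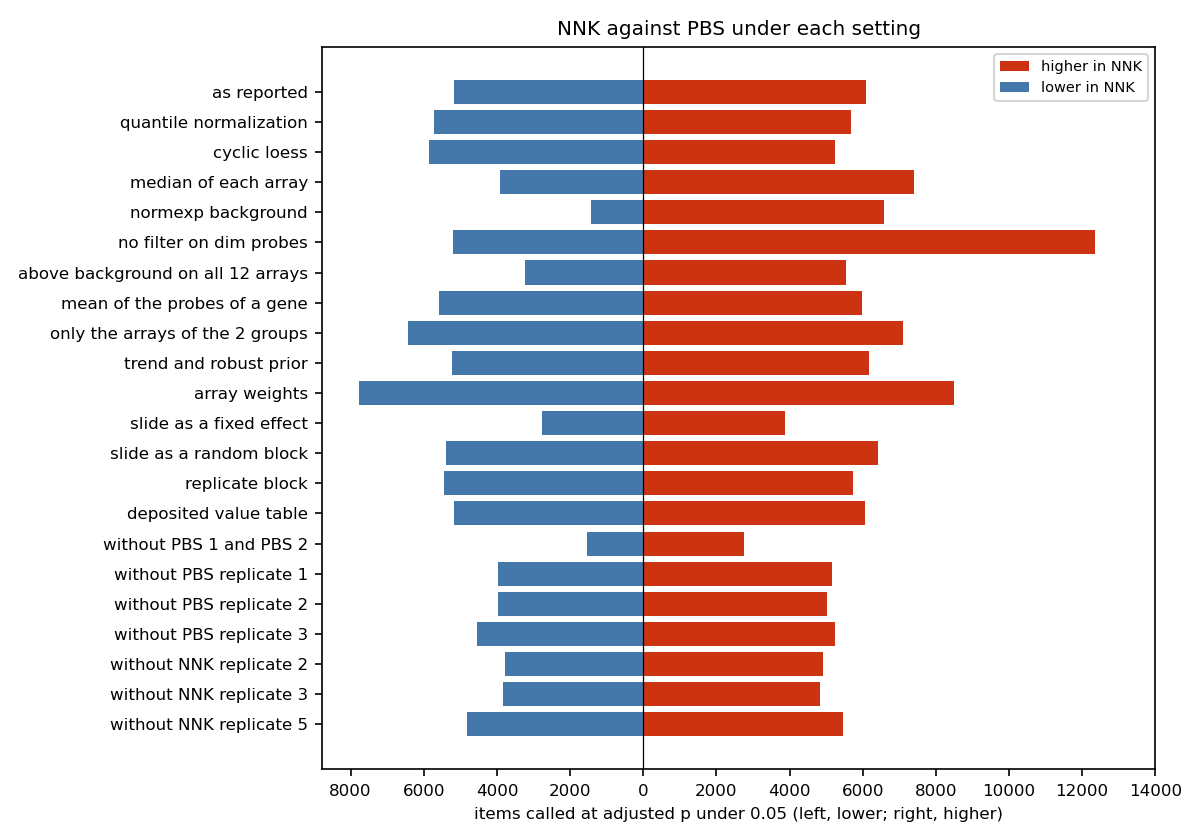
Number of items called higher (right, red) and lower (left, blue) in NNK against PBS at adjusted p under 0.05 under each setting. The reported setting has 6081 and 5183, and leaving out PBS 1 and PBS 2 leaves 2764 and 1535.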

How the data were processed

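Total RNA from whole lung was labelled with Cy3 and hybridised to 1-colour Agilent arrays, and Feature Extraction 10.7.3.1 gave background-subtracted intensity values, per the file headers. The table of log2 values deposited by the authors equals the log2 processed signal after subtracting the array's own 75th percentile, to within 4.54e-05 over 41174 probes. That scaling was recomputed here from the scanner intensities deposited, without control and outlier spots. Probes well above background on all 3 arrays of at least 1 group were kept (28333), and the brightest probe stood for a gene, giving 21855 items, 13648 of them genes with a symbol. limma 3.58.1 fitted 1 mean per group on all 12 arrays, with Benjamini-Hochberg adjustment over all items (R 4.3.3). Every SE and adjusted p is from that fit, except the adjusted p-values given against PBS 3 alone. Those come from a separate fit without the other PBS arrays. For a single value, an exact permutation test of 3 against 3 cannot go below 0.1.

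Named genes were the 12 largest rises and falls without overlap, the 6 leading in each direction against both PBS and LPS, up to 5 called members of each of 40 lists with the smallest p, all members where a count was at most 5, and Cyp2a5, Cyp2f2, Mgmt, Cdkn1a, Chrna7 and Adrb1; some genes that this rule names are not reported here. The comparison and the lists were chosen with earlier results of these data known. The labels do not say whether arrays hold separate or pooled mice, so p-values measure the spread between arrays. Alternatives were quantile, cyclic loess and median scaling, normexp (offset 50, on median signals), probe filters and summaries, priors, weights, slide and replicate blocks, and leaving out arrays. The fit was tested on simulated data.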

Additional observations from a re-analysis of the deposited data

How the results depend on the processing

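With 11264 items called, 6081 higher and 5183 lower, the counts became 17566 and 12365 higher with no filter on dim probes, where 32946 items were tested. With the slide as a fixed effect they were 6643, 3871 higher and 2772 lower, and without PBS 1 and PBS 2 they were 4299, 2764 higher and 1535 lower. The fit with the slide also left out PBS 2 and the LPS arrays, so its counts differ in the arrays used as well as in the slide term. Lower items numbered 1420 under normexp and 3244 with only probes above background on all 12 arrays. Leaving out 1 NNK or PBS array gave 8661 to 10290 called items, 4834 to 5462 higher and 3770 to 4828 lower. The list members called, 453 of 965, became 258 under normexp, 294 with slide fixed, 195 without PBS 1 and PBS 2, and 343 to 404 with 1 array left out. An added rule, chosen after seeing the data, that the brighter group be above background on all 3 arrays gave 11194.

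The 1360 items called between NNK and LPS became 220 under normexp, 805 with probes above background on all 12 arrays and 7021 with array weights. They ranged from 601 without NNK 3 to 2131 without LPS 6, with 710 without LPS 1, 870 without NNK 2 and 720 without NNK 5. The causes of these shifts were not tested.

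PBS and NNK share the replicate numbers 2 and 3, whose deviations correlated at -0.05 and 0.07, so these arrays share only a number. With the replicate block 11186 items were called, 455 list members and 1365 items between NNK and LPS.

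Under normexp these changes against PBS turned from lower to higher: Ucp3 0.78, Lipg 0.49, Steap4 0.18, Gpr141 1.36, Gbp2b 0.73, Slfn8 1.28, Polh 1.32, Nusap1 0.064, Sntn 0.40, Trat1 1.16, Cyp2c55 1.32, Nqo1 0.20, Hmga2 0.82, Cd5l 1.44, Il1a 1.02, Cry1 0.57, Stx1a 0.53 and Elavl2 1.24. Against LPS, Steap4 became 0.11, Gpr141 0.57 and Slfn8 0.59. Cbr2 became -0.34 under quantile normalization and -0.42 under cyclic loess. The low signal of dim probes limits these values: 896 items called lower were above background on no NNK array.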
